A study of Rattus norvegicus with 6 samples.

Results

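The ErbB receptors and their ligands were followed in cultured rat heart cells, as the 4 receptor genes Egfr, Erbb2, Erbb3 and Erbb4 and the 5 ligand genes Nrg1, Hbegf, Btc, Areg and Ereg. These 9 genes were taken by name from a table of 22250 genes, where each name had 1 row. The cells were wild-type neonatal rat cardiomyocytes (NRCMs), a primary culture made by collagenase digestion of the hearts of 1-day-old Sprague–Dawley rats and grown with 10% foetal bovine serum. In 3 libraries the cells had received 3Cl-HBA at 40 µM for 48 h, and in 3 libraries the solvent DMSO for 48 h. The series title names hydroxycarboxylic acid receptor 1, a lactate receptor, as the target to be activated.

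The ErbB receptors are receptor tyrosine kinases that pair up when a ligand binds and then signal through the Ras and MAP kinase route and the PI3 kinase and Akt route. Egfr binds Hbegf, Btc, Areg and Ereg, Erbb3 and Erbb4 bind the neuregulin Nrg1, and Erbb4 also takes up Hbegf, Btc and Ereg. Erbb2 has no known ligand and serves as the favoured partner of the others, while Erbb3 has little kinase activity of its own. In the mouse heart, Nrg1 made by endocardial and endothelial cells acts on Erbb4 and Erbb2 of the muscle cells and is needed for the ventricular wall to form.

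The libraries held 14607337 to 17202191 reads assigned to genes after 3Cl-HBA and 13240800 to 14499065 in DMSO, so every treated library was the deeper. Heart muscle markers were abundant, with Tnnt2 at 2927 ± 99.1 CPM after 3Cl-HBA and 2935 ± 164 CPM in DMSO (SD, n = 3 each), where CPM is the read count scaled to the library total, with TMM factors that adjust for composition. Markers of other heart cells were present too, and each of the 42 matched marker genes had reads in at least 1 library. The summed CPM of 6 fibroblast markers was 15068 to 15339 after 3Cl-HBA and 14943 to 15830 in DMSO, and that of 6 endothelial and endocardial markers was 594 to 624 after 3Cl-HBA and 576 to 646 in DMSO. The summed CPM of 3 erythroid markers was 22.5 to 31.8 after 3Cl-HBA and 21.0 to 22.5 in DMSO. Of 39 markers tested, 0 passed the test, 3 (7.69%) were under an unadjusted 0.05 and 6 (15.4%) had groups that did not overlap, beside 5.11% and 10.5% of all tested genes. Named after their values were seen, the haemoglobin gene Hba-a1 had 19.3 ± 3.62 CPM after 3Cl-HBA and 13.7 ± 1.36 CPM in DMSO (log2 fold change 0.49, edgeR adjusted p 0.845). The other erythroid markers were not higher. Hbb had 7.61 ± 1.35 CPM after 3Cl-HBA and 7.54 ± 0.785 CPM in DMSO (log2 fold change 0.00766). Alas2 had 1, 5 and 0 reads after 3Cl-HBA, against 5, 5 and 1 reads in DMSO. The calcium release channel Ryr2 had 861 ± 66.4 CPM after 3Cl-HBA and 969 ± 35.3 CPM in DMSO (log2 fold change -0.17, edgeR adjusted p 0.914). The levels are those of a mixed culture, in which fewer cells of a type and less RNA per cell cannot be told apart. Replicate numbers run from 1 to 3 in both treatments, but no label ties a library to its own culture or animal, so p-values measure only the spread between these samples, which may be technical.

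The ligand Hbegf was the most abundant transcript of the family per gene length, and among the receptors Egfr came before Erbb2, Erbb4 and Erbb3. On the FPKM scale, the deposited value that divides reads by gene length and library depth, the mean over the 6 libraries was 15.8 for Hbegf, 10.2 for Egfr, 5.4 for Erbb2 and 4.23 for Nrg1. A second tier held Areg at 1.97, Ereg at 1.81 and Erbb4 at 1.44 FPKM. Erbb3 stood at 0.599 FPKM and Btc at 0.207 FPKM. Hbegf lay above 71.4% of the genes with reads, Egfr above 61.4%, Erbb4 above 34.1% and Btc above 18.8%. Neighbours in this order kept it in 6 of 6 libraries, except that Areg was above Ereg in 5 of 6 and Ereg above Erbb4 in 5 of 6. Erbb2 and Nrg1 also came close, with an Erbb2 to Nrg1 ratio of FPKM from 1.0 to 1.44. The gene length behind these values is the authors' and does not resolve transcript isoforms, of which Nrg1 has many.

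**Figure D1:**
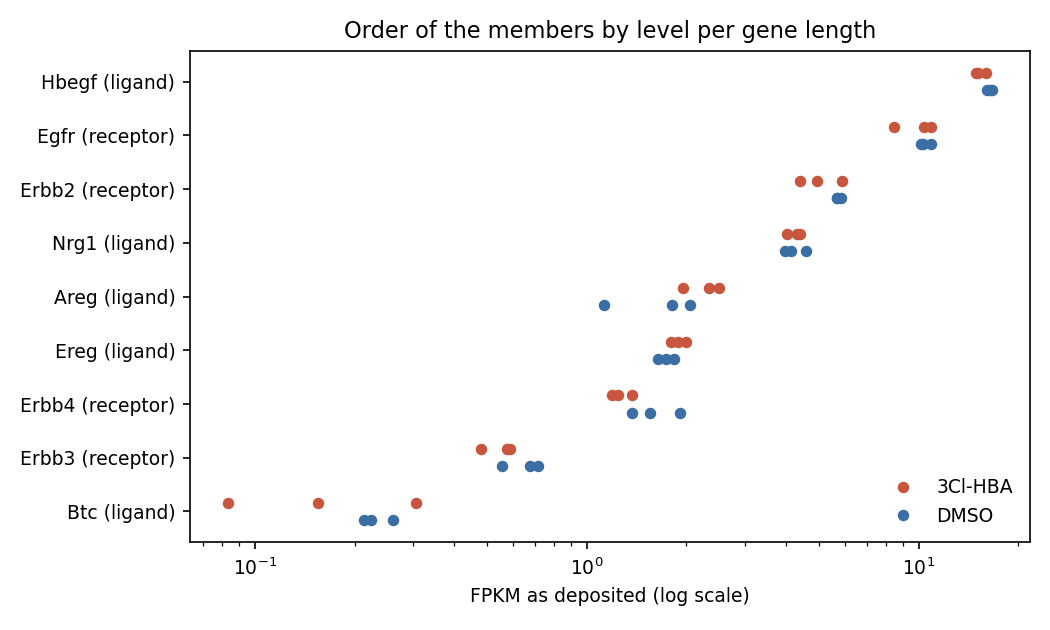
FPKM of each member in each library on a log axis, with 3Cl-HBA points above DMSO points in each row and members sorted by their mean. Hbegf leads at a mean of 15.8 FPKM, Btc closes the order at 0.207 FPKM, and the points of Areg, Ereg and Erbb4 run into each other.

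Each receptor averaged lower after 3Cl-HBA than in DMSO, but none of the differences passed the test. Of 13903 genes tested across the whole table with edgeR's quasi-likelihood test, 0 had an adjusted p under 0.05, which is 0% of those tested, and 0 of the 8 family members that entered the test did. With all libraries in the fit, all 8 were also above an unadjusted 0.05, a mark that 5.11% of all tested genes met. Btc fell below the filter on low counts. All 4 receptors had a log2 fold change (3Cl-HBA over DMSO) below 0, as had 50.2% of all tested genes. Their median was -0.209, against -0.001 over all tested genes.

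Egfr, the receptor of Hbegf, Areg and Ereg (ENSRNOG00000004332, chromosome 14, 99919485 to 100098796, plus strand), had 35.0, 43.7 and 45.4 CPM in 3Cl-HBA replicates 1 to 3, against 45.2, 42.3 and 43.0 CPM in DMSO replicates 1 to 3. The first treated library was the low one, and the remaining treated libraries lay among or just above the DMSO libraries. On the log2 scale the change was -0.0687 with an SE of 0.0816 and a 95% interval of -0.23 to 0.10 (adjusted p 0.986 by edgeR). Without 3Cl-HBA replicate 1 it turned to 0.0351. That library had the highest summed levels of erythroid markers, at 31.8 CPM, and of Schwann cell and neuronal markers, at 87.1 CPM. The other 5 libraries had at most 26.8 CPM of erythroid and 76.4 CPM of Schwann cell and neuronal markers. The part of these cells in the result was not tested.

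Erbb2, the partner receptor without a ligand of its own (ENSRNOG00000006450, chromosome 10, 86367596 to 86391728, plus strand), had 20.8, 23.5 and 27.9 CPM after 3Cl-HBA, against 27.0, 26.9 and 27.7 CPM in DMSO. The treated libraries were spread widely, with the lowest in replicate 1 as for Egfr and the highest in replicate 3, above every DMSO library. The DMSO libraries were tightly grouped, and the SD was 3.59 CPM after 3Cl-HBA and 0.46 CPM in DMSO. This gave a log2 change of -0.18 with an SE of 0.0966 (95% interval -0.37 to 0.02), at an edgeR adjusted p of 0.975. It moved to -0.30 without 3Cl-HBA replicate 3, where it was under an unadjusted 0.05 (edgeR adjusted p 0.984), and to -0.0841 without 3Cl-HBA replicate 1.

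Erbb4, the neuregulin receptor through which heart muscle cells respond to Nrg1 (ENSRNOG00000014248, chromosome 9, 75021790 to 75528644, minus strand), had 69, 78 and 82 reads after 3Cl-HBA, against 82, 105 and 69 reads in DMSO. In CPM these were 4.70, 4.56 and 5.22 after 3Cl-HBA and 5.87, 7.23 and 5.23 in DMSO. It was the only one of the 8 tested members whose groups did not overlap on this scale, where 10.5% of all tested genes were separated in the same way. The separation rests on 3Cl-HBA replicate 3 at 5.223 CPM beside DMSO replicate 3 at 5.231 CPM, and it is lost in FPKM, where 3Cl-HBA replicate 3 stood at 1.373 and DMSO replicate 3 at 1.3728. For Erbb4 the fitted log2 change was -0.34 (SE 0.185), with a 95% interval of -0.72 to 0.03 and an edgeR adjusted p of 0.971. It ran from -0.44 without DMSO replicate 3, where it was under an unadjusted 0.05 (edgeR adjusted p 0.66), to -0.20 without DMSO replicate 2.

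Erbb3, the neuregulin receptor with a weak kinase (ENSRNOG00000004964, chromosome 7, 2989340 to 3010350, minus strand), had 50, 49 and 55 reads after 3Cl-HBA, against 56, 48 and 56 reads in DMSO. The corresponding CPM were 3.41, 2.87 and 3.5 after 3Cl-HBA and 4.01, 3.3 and 4.25 in DMSO. The groups overlapped, since the lowest DMSO library lay under 2 of the treated ones. Its difference on the log2 scale was -0.24, with an SE of 0.225 and a 95% interval of -0.70 to 0.21 (adjusted p 0.984 by edgeR). It ran from -0.34 without DMSO replicate 2 to -0.15 without 3Cl-HBA replicate 2. Erbb3 is also a receptor of Schwann cells, and the summed CPM of 5 Schwann cell and neuronal markers was 74.1 to 87.1 after 3Cl-HBA and 72.6 to 74.0 in DMSO. All 5 were found, 3 entered the test and 0 passed. The Schwann cell marker Sox10 was near 0, with 1, 4 and 2 reads after 3Cl-HBA, against 5, 3 and 3 reads in DMSO. The table gives no gene overlapping any of the 9 members on either strand.

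**Figure D2:**
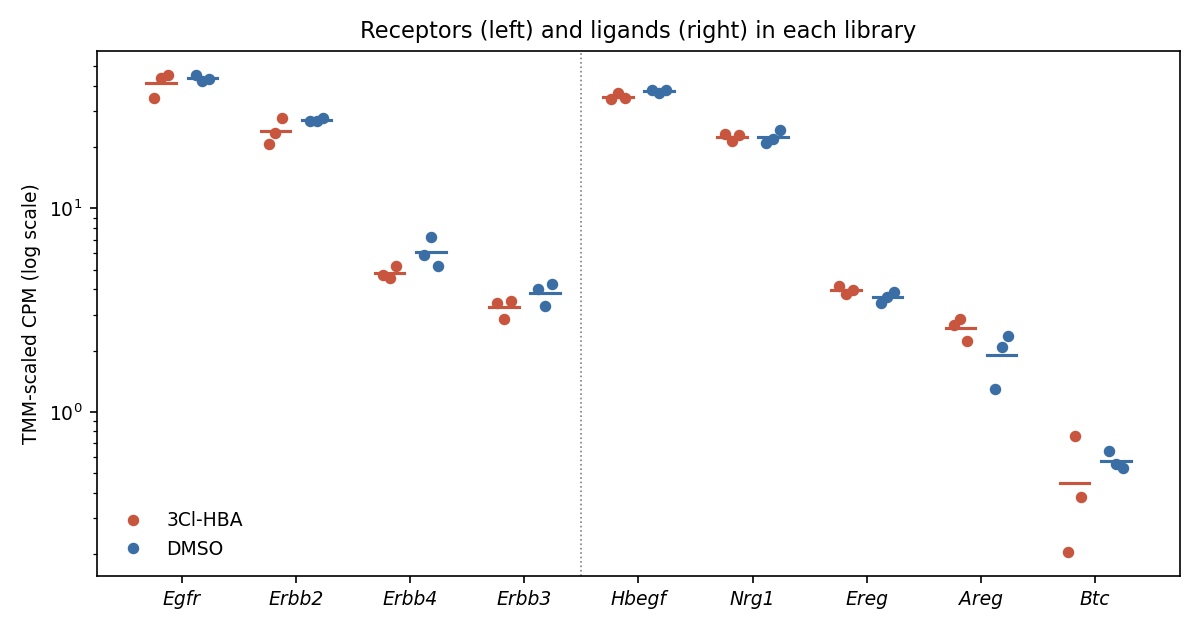
TMM-scaled CPM of each member on a log axis, with 1 point per library, bars at the group means and 3Cl-HBA to the left of DMSO. The treated Egfr and Erbb2 points are spread more widely than the DMSO points, and the treated Btc points, at 3 to 13 reads, are the most scattered.

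Egfr held the largest share of the receptor pool in each library, and no difference in share between treatments passed the test. Egfr took 57.6%, 61.3% and 58.2% of the summed FPKM of the 4 receptors after 3Cl-HBA, against 57.9%, 55.5% and 56.5% in DMSO. Erbb2 took 30.1 ± 1.22% after 3Cl-HBA and 31.1 ± 0.851% in DMSO (SD, n = 3 each). Erbb4 took 7.6 ± 0.77% after 3Cl-HBA and 8.73 ± 1.49% in DMSO, and Erbb3 3.3 ± 0.571% after 3Cl-HBA and 3.52 ± 0.441% in DMSO. The differences, 3Cl-HBA minus DMSO, were 2.38 points for Egfr, -1.03 for Erbb2, -1.12 for Erbb4 and -0.222 for Erbb3. A two-sided exact permutation test gave p of 0.2, 0.3, 0.4 and 0.8 in that order, and 3 libraries against 3 cannot give a p under 0.1. Without 3Cl-HBA replicate 2 the difference was 1.25 points for Egfr and -0.449 for Erbb2, and for Erbb4 it was -0.283 without DMSO replicate 2 and -1.72 without DMSO replicate 3. For Erbb2 it was -1.66 without 3Cl-HBA replicate 3 and -0.584 without DMSO replicate 3. Erbb2 was at 3.54, 4.12 and 4.27 times the FPKM of Erbb4, its partner for neuregulin signalling, after 3Cl-HBA and at 3.68, 2.98 and 4.25 times in DMSO, with overlapping groups. The summed receptor FPKM was 14.7, 17 and 18.7 after 3Cl-HBA, against 18.8, 18.3 and 18.2 in DMSO, so the treated libraries differed more from each other than the DMSO libraries did.

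**Figure D3:**
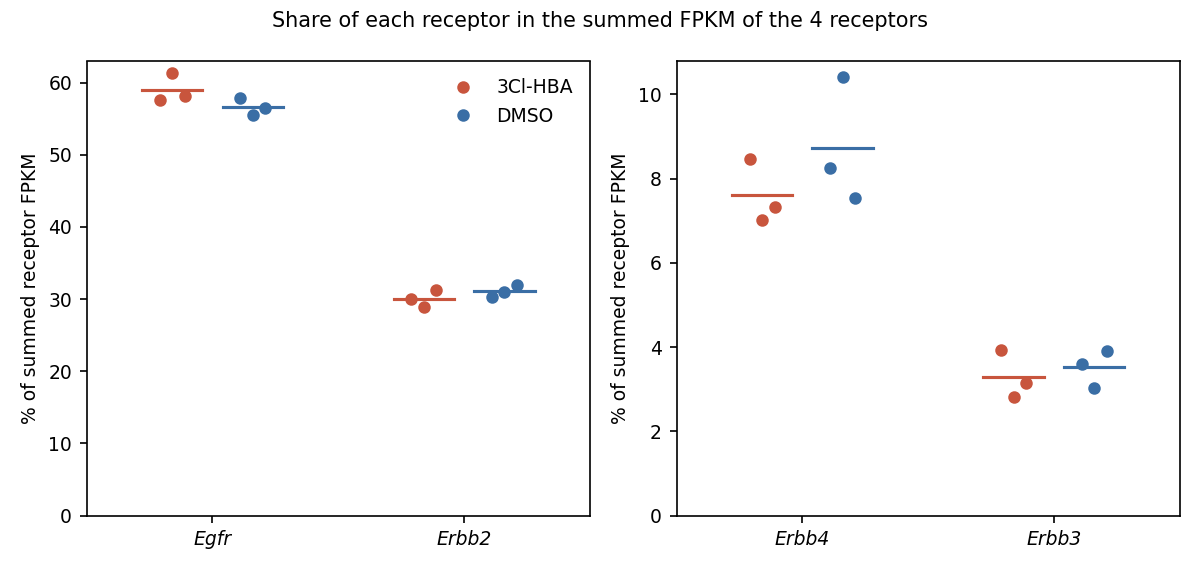
Share of each receptor in the summed FPKM of the 4 receptors, with 1 point per library, bars at group means and a separate axis for Erbb4 and Erbb3, whose shares are small. Egfr averaged 59.0% after 3Cl-HBA and 56.7% in DMSO, and Erbb4 7.6% after 3Cl-HBA and 8.73% in DMSO.

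The tested ligands had fold changes in both directions, 3 above 0 and 1 below, and none passed. Nrg1, the neuregulin ligand of Erbb3 and Erbb4 (ENSRNOG00000010392, chromosome 16, 63837216 to 64057434, plus strand), had 23.2, 21.4 and 22.9 CPM after 3Cl-HBA, against 20.9, 21.8 and 24.3 CPM in DMSO. The treated values lay inside the range of the DMSO values. The change on the log2 scale was 0.00996, with an SE of 0.0968, a 95% interval of -0.18 to 0.20 and an edgeR adjusted p of 0.998. The bounds of that interval are fold changes of 0.88 and 1.15, and the sign turned when 3Cl-HBA replicate 1 or 3 or DMSO replicate 1 or 2 was left out.

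Hbegf, the heparin-binding ligand of Egfr and Erbb4 (ENSRNOG00000018646, chromosome 18, 29329764 to 29340403, minus strand), had 34.3, 37.0 and 34.9 CPM after 3Cl-HBA, against 38.1, 37.0 and 38.0 CPM in DMSO. The treated replicates 1 and 3 were under all DMSO libraries, and replicate 2 of each treatment stood level. For Hbegf the fitted log2 change was -0.0885, with an SE of 0.0785 (95% interval -0.25 to 0.07), at an edgeR adjusted p of 0.984. With 1 library left out the value lay between -0.12 and -0.0662.

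Areg, Ereg and Btc are neighbours on chromosome 14, where no other gene of the table lies among them over a stretch of 360 kb. Areg, a ligand of Egfr (ENSRNOG00000002754, 18521930 to 18531179, minus strand), had 39, 49 and 35 reads after 3Cl-HBA, against 18, 30 and 31 reads in DMSO. In CPM these were 2.66, 2.87 and 2.23 after 3Cl-HBA and 1.29, 2.07 and 2.35 in DMSO. DMSO replicate 1 was the low one, and the groups overlapped because the lowest treated library lay under the highest DMSO library. For Areg the fitted log2 change was 0.45 (SE 0.293), with a 95% interval of -0.14 to 1.04 and an edgeR adjusted p of 0.983. This was the largest fold change of the family in size and lay above 0.39, the upper end of the central 95% of all tested genes. It was 0.23 without DMSO replicate 1 and was 0.62 without DMSO replicate 3. The interval runs from a fold change of 0.906 to 2.05, which holds both no change and a 2-fold higher level.

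Ereg, which binds Egfr and Erbb4 (ENSRNOG00000002771, 18576355 to 18591394, minus strand), had 61, 65 and 62 reads after 3Cl-HBA, against 48, 53 and 51 reads in DMSO. Scaled for depth, these were 4.16, 3.8 and 3.95 CPM after 3Cl-HBA and 3.44, 3.65 and 3.87 CPM in DMSO. The treated libraries were also the deeper ones, and the part of depth in the read counts was not tested. In CPM, 2 of the 3 treated libraries were above all DMSO libraries. For Ereg the log2 change was 0.12, with an SE of 0.215 and a 95% interval of -0.31 to 0.55 (adjusted p 0.990 by edgeR).

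Btc, betacellulin (ENSRNOG00000002728, 18231860 to 18272484, plus strand), had 3, 13 and 6 reads after 3Cl-HBA, against 9, 8 and 7 reads in DMSO. The treated libraries held both the lowest and the highest count. Fitted without the filter, Btc had a log2 change of -0.33, with an SE of 0.633 and an edgeR adjusted p of 0.971. The 95% interval of -1.57 to 0.92 holds both no change and a 2-fold lower level.

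**Figure D4:**
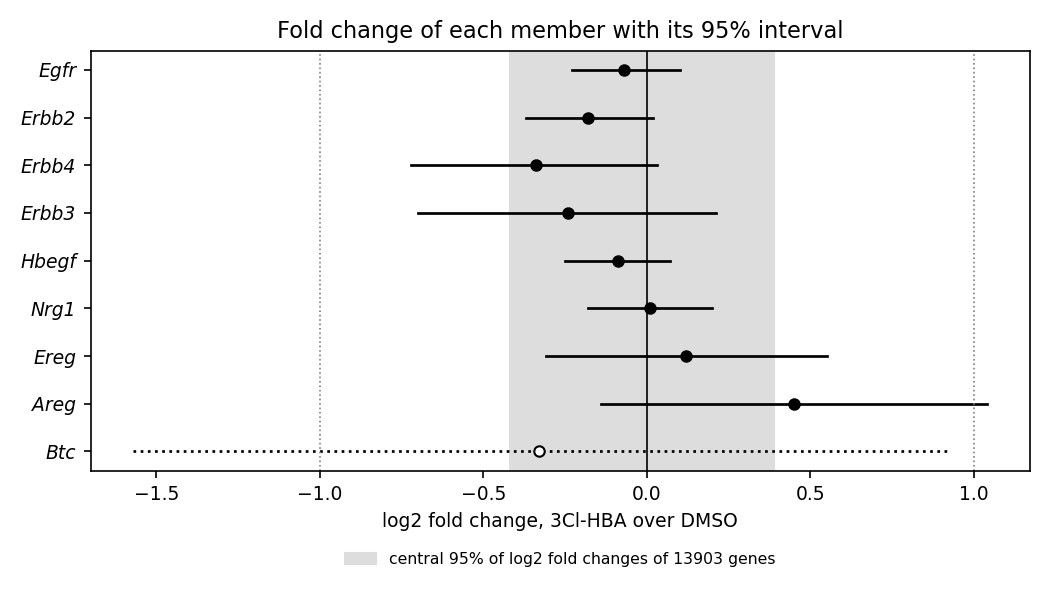
Log2 fold change (3Cl-HBA over DMSO) of each member with its 95% interval, with Btc dotted because it was fitted without the filter. Dotted lines mark 2-fold changes and the grey band spans -0.42 to 0.39, the central 95% of the fold changes of all tested genes, and every interval crosses 0.

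For 7 of the 8 tested members the 95% interval lay inside a 2-fold change in either direction, the exception being Areg. Egfr, Erbb2, Nrg1 and Hbegf, the members with the most reads, had the narrowest intervals, with fold-change bounds of 0.851 to 1.07, 0.774 to 1.01, 0.88 to 1.15 and 0.843 to 1.05. Within the ligand pool, Hbegf made up 62.9%, 64.9% and 64.6% of the summed FPKM of the 5 ligands after 3Cl-HBA, against 70.3%, 67.0% and 65.4% in DMSO. Nrg1 made up 18.5%, 16.3% and 18.4% after 3Cl-HBA, against 16.8%, 17.2% and 18.2% in DMSO. The share of Hbegf was lower in each treated library than in any DMSO library, with 64.9% and 65.4% as the closest values. In CPM the groups of Hbegf overlapped, with 37.0 CPM in replicate 2 of each treatment. Of all tested genes, 10.5% had groups that did not overlap in CPM, a figure that does not cover shares of a pool. The shares of the ligands were looked at after the values were seen and were not tested.

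RefSeq promoter windows of assembly GRCr8, from 250 bases before to 50 after the annotated start, were at hand for 6 of the 9 members, namely Egfr, Erbb2, Erbb4, Hbegf, Btc and Areg. The windows of Areg and Erbb4 are shown because these were the tested members with the largest fold changes in each direction. Capitals mark the searched motifs, which are the cAMP response element TGACGTCA, the TATA box TATAAA and the GC box GGGCGG, on both strands and without overlap in these windows. The Areg window lies at chr14:17265592-17265891 on the minus strand and the Erbb4 window at chr9:78045557-78045856 on the minus strand. These GRCr8 positions cannot be compared with the gene positions given above, whose build is not named.
Areg: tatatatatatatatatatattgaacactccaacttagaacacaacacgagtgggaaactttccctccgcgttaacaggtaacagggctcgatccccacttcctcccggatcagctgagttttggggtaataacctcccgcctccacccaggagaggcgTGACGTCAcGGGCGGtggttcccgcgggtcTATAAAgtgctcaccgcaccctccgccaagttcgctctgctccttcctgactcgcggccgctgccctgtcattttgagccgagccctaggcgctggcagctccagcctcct
Erbb4: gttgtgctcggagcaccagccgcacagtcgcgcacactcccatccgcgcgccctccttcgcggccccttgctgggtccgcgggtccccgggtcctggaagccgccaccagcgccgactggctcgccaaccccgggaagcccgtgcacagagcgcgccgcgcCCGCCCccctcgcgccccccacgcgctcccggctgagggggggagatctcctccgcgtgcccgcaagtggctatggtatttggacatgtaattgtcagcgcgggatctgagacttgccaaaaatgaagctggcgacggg
Areg was the only one of the 6 with a cAMP response element, 91 bases before the annotated start, and with a TATA box, which began 61 bases before it. A cAMP response element occurred in 1.83% of 33469 rat promoter windows of this length, a TATA box in 14.2% and a GC box in 33.1%. Hbegf had none of the 3 motifs, and the other 5 had a GC box each. The windows held 13 CpG in Btc, 15 in Egfr, 20 in Areg, 25 in Erbb2 and 35 in both Erbb4 and Hbegf, against a median of 7 over all windows. A match of letters is a description and does not show binding.

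The wider pathway gave no calls either. Of 87 genes listed for it, 86 were found in the table and 81 entered the test, of which 0 passed with edgeR, DESeq2 or limma-voom. At an unadjusted 0.05 edgeR counted 4, or 4.94%, beside 5.11% of all tested genes, and the groups did not overlap for 9 (11.1%, beside 10.5%). Of these 4, named after their values were seen, 3 had log2 fold changes above 0, namely Mapk3 (0.13), Phlda1 (0.16) and Stub1 (0.16). The 1 below 0 was Adam12 (-0.20). The median log2 fold change was -0.026, and all 81 intervals lay inside a 2-fold change. In direction, 49 of the 81 were below 0 and 32 above, where 50.2% of all tested genes were below 0.

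Among the other ligands, Tgfa alone entered the test, with 12.4 ± 0.64 CPM after 3Cl-HBA and 14 ± 1.68 CPM in DMSO (SD, n = 3 each; log2 fold change -0.16, SE 0.123). Nrg4, Nrg2, Egf and Epgn were under the filter, with at most 12 reads in any library. Egf, named here after its values were seen, had 9, 11 and 10 reads after 3Cl-HBA, against 5, 2 and 2 reads in DMSO. Its groups did not overlap. The same held for 10.5% of the tested genes, a share that leaves out genes under the filter such as Egf. Without the filter Egf had a log2 change of 1.55, with an SE of 0.739 and an edgeR adjusted p of 0.930.

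Of the 9 genes for shedding of membrane-bound ligands, 0 passed and 2 had a log2 fold change above 0 (median -0.049). The metalloproteases Adam19, Adam9 and Adam10 were the most abundant, with log2 fold changes of -0.00785, -0.034 and 0.00056. Adam17, the main sheddase of Areg and Hbegf, had 130.0 ± 3.15 CPM after 3Cl-HBA and 135 ± 5.88 CPM in DMSO (SD, n = 3 each). Adam12, another protease of Hbegf, had the largest difference of this list, with 60.5 ± 5.47 CPM after 3Cl-HBA and 69.4 ± 1.73 CPM in DMSO (log2 fold change -0.20, SE 0.0677, edgeR adjusted p 0.959). Adam17 and Adam12 were named after their values were seen.

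Below the receptors, 0 of 17 adaptor, Ras and MAP kinase genes passed, 0 of 10 PI3 kinase and Akt genes and 0 of 8 Src, FAK, STAT and phospholipase genes, with medians of -0.029, -0.033 and -0.028. In that order, 8, 3 and 2 genes had a log2 fold change above 0. The phosphatase Ptpn11 had 374 ± 6.62 CPM after 3Cl-HBA and 390.0 ± 7.1 CPM in DMSO. The transcription factor Stat3 had 392 ± 18.3 CPM after 3Cl-HBA and 395 ± 3.38 CPM in DMSO (SD, n = 3 each). The kinases Akt1 and Akt2 had log2 fold changes of -0.0269 and 0.046.

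Of 16 tested genes that restrain or degrade the receptors, 0 passed, 6 had a log2 fold change above 0 and the median was -0.026. Errfi1, an inhibitor that binds the kinase domains of the family, had 110.0 ± 3.95 CPM after 3Cl-HBA and 109 ± 1.92 CPM in DMSO, and the ubiquitin ligase Nedd4 had 2096 ± 62.9 CPM after 3Cl-HBA and 2115 ± 35.5 CPM in DMSO (SD, n = 3 each). Of 20 genes that respond to or feed back on the pathway, 0 passed, 11 had a log2 fold change above 0 and the median was 0.011. Vegfa had 590.0 ± 21 CPM after 3Cl-HBA and 590.0 ± 13 CPM in DMSO, and the cyclin Ccnd1 had 245 ± 13.2 CPM after 3Cl-HBA and 242 ± 5.86 CPM in DMSO. The phosphatase Dusp1, which acts on MAP kinases, had 87.3 ± 2.38 CPM after 3Cl-HBA and 90.6 ± 1.54 CPM in DMSO (SD, n = 3 each).

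**Figure D5:**
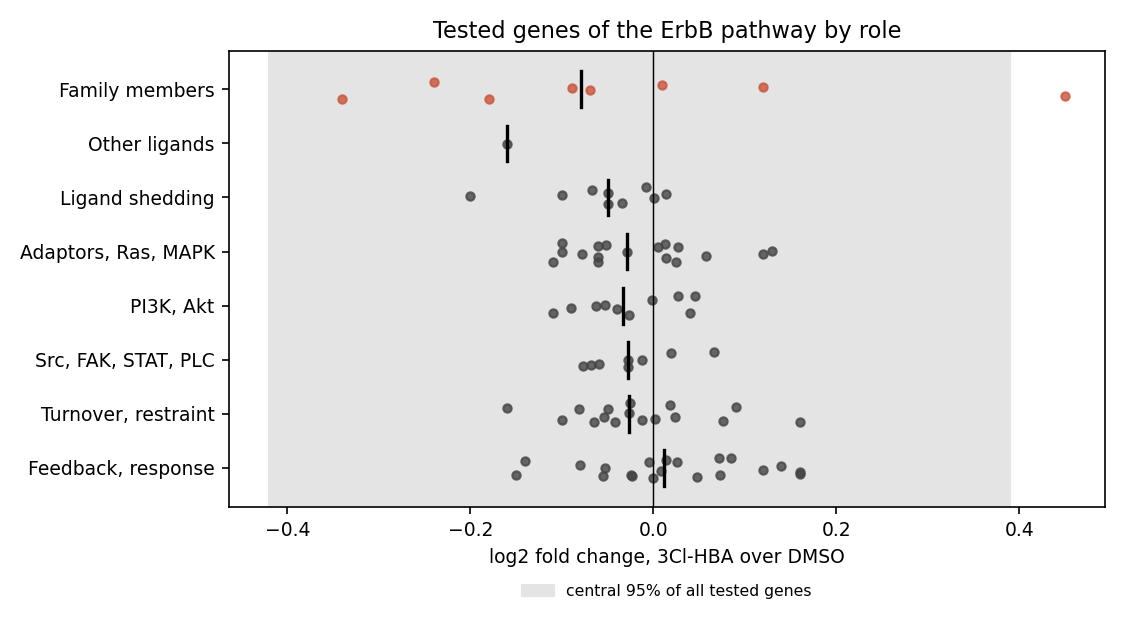
Log2 fold changes (3Cl-HBA over DMSO) of the tested family members and pathway genes, 1 point per gene and a bar at each median. The tested family members span -0.34 to 0.45, while the pathway genes stay between -0.20 and 0.16, inside the grey band of the central 95% of all tested genes. The ends of the family span are Erbb4 and Areg, with 485 and 202 reads in all and SEs of 0.185 and 0.293. Adam12, at -0.20, had an SE of 0.0677. The part of read depth in the wider family span was not tested.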

How the data were processed

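The deposited table held whole-number read counts per gene, not normalised, and FPKM computed by the authors, per the file headers. Dividing each count by length and column total gave the same FPKM within a relative gap of 8.2e-08. The kit named for the RNA is KAPA RiboErase, and the authors used DESeq2, per the labels' protocols. No source used here names the aligner, counter, strand setting, build or annotation, so coordinates are those of the table.

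Columns were assigned through the treatment protocol and the numbers in titles. Counts were tested in R 4.3.3 with edgeR 4.0.16 (TMM factors, glmQLFTest after a robust glmQLFit without a block, genes kept by filterByExpr at 10 counts), and p-values were Benjamini-Hochberg adjusted over all tested genes, with calls at 0.05. SEs came from unshrunk fold changes and the F statistic. The fit was tested on simulated counts. Alternatives were DESeq2 1.42.0, limma-voom (limma 3.58.1), library totals, no filter, a replicate block, each library left out and, chosen after seeing the data, removal of each library's length trend. Receptor shares were tested with scipy 1.17.1. Named genes were all members, the 3 most abundant of each pathway list, and others where said, and some genes that this rule names are not reported here. Members and lists were chosen with earlier results of these data known.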

Additional observations from a re-analysis of the deposited data

How the results depend on the processing

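No family member and no pathway gene passed under any alternative. Over all genes the count past the threshold was 0 as reported, 2 with no filter on low counts, and 0 to 8 with 1 library left out (2 and 3 without 3Cl-HBA replicates 2 and 3, 1 and 8 without DMSO replicates 2 and 3). With a replicate block it stayed 0, for the family 0 and for the pathway 0, and the numbers were not taken to pair the libraries, since deviations of same-numbered libraries correlated at -0.069, -0.044 and -0.045. Of 97 member fold changes under alternatives, 92 kept their direction. With 1 library left out Egfr ran from -0.14 to 0.0351 and Nrg1 from -0.0356 to 0.0714. The difference in the share of Erbb3 ran from -0.537 to 0.0184 points. The cause was not tested. Removing the length trend gave log2 fold changes of 0.44 for Areg, -0.33 for Erbb4 and -0.16 for Erbb2. Depth limits Btc and Areg most, with 46 and 202 reads in all.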
